A study of Mus musculus with 6 samples.

Results

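The genes described here encode the nuclear subunits and the Ndufaf assembly factors of respiratory chain complex I. They were chosen by name: a row of the count table entered when its Ensembl mouse identifier belongs to a protein-coding gene whose symbol starts with Nduf, followed by a, b, c, s or v and a number, or is Ndufaf with a number. The rule found 45 genes among 55450 identifiers. Of these, 37 carry a subunit symbol and 8 are assembly factors. Ndufa4 and Ndufa4l2 are among the 37, although the NDUFA4 protein is now assigned to complex IV, so 35 genes remain as complex I subunits. Ndufab1, the acyl carrier protein of the complex, and Ndufb1-ps, which the annotation does not class as protein-coding, fall outside the pattern.

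The study measured polyA RNA of scraped intestinal epithelium by paired-end RNA-seq. It compared 3 knockout mice, labelled 423, 476 and 477, with 3 control mice, labelled 482, 483 and 486, with 1 library each. Mice of both genotypes carried loxP-flanked alleles of Ncor1 and of the other targeted corepressor gene, and the labels' protocols describe tamoxifen for all of them, 15 mg per 100 g body weight on 5 days from an age of 8 to 9 weeks. Knockout mice also carried Vil1-Cre-ERT2, a tamoxifen-dependent Cre driven by the villin promoter, which is active in epithelial cells of the intestine. Controls were Vil1-Cre-ERT2 negative, so the deletion and the presence of the Cre transgene cannot be told apart. The part of the intestine behind each library is not stated in the labels.

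Complex I, the NADH:ubiquinone oxidoreductase of the inner mitochondrial membrane, passes electrons from NADH to ubiquinone and pumps protons across the membrane. Its matrix arm holds the flavin and the iron-sulphur clusters, its membrane arm does the pumping, and a set of accessory subunits surrounds the catalytic core. Assembly factors build the modules and join them but are absent from the finished enzyme. The membrane arm core is encoded by mitochondrial DNA, and mitochondrial transcripts were not analysed here. Absorptive enterocytes, the main cells of this tissue, are rich in mitochondria and use their ATP for nutrient uptake.

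Most complex I transcripts had somewhat higher values in the knockout libraries, and few of the differences passed the test. Of the 45 genes, 44 passed the filter on low counts, and 9 of these rose and 1 fell (edgeR quasi-likelihood test, Benjamini-Hochberg adjusted p below 0.05). Among all 15028 genes tested 35.6% were called, 17.3% as risen and 18.3% as fallen, so the share of complex I genes that rose, 20.5%, was close to that of all genes. The share that fell was 2.27%. A positive log2 fold change was found in 41 of the 44, against 47.6% of all genes, and their median was 0.51, against -0.06 for all genes. The 9 genes that rose were Ndufa4, Ndufaf6, Ndufa7, Ndufb6, Ndufb4, Ndufs4, Ndufc1, Ndufaf7 and Ndufa12, and the gene that fell was Ndufs1. Every knockout library lay above every control library in 10 of the 44 (23.9% of all genes) and below in 1 (26.4% of all genes).

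The test sets how many are counted. At an unadjusted p under 0.05, 18 of the 44 were higher and 1 lower in edgeR. Among all 15028 genes 3425 were higher and 3624 lower at that threshold, which is the background for its later counts as well. DESeq2 called 17 and 1 of the 44, and limma-voom called 21 and 1. Among all genes DESeq2 called 20.1% higher and 19.7% lower, and limma-voom 21.1% and 21.2%. The gene called lower was Ndufs1 each time, so that in these fits no accessory subunit and no assembly factor was lower. In other edgeR fits some accessory subunits fell. They were Ndufa13 with library size alone in place of TMM, and Ndufb3 and Ndufs5 with the trend on length and GC content removed. With the trend on length alone removed they were Ndufs5 (log2 fold change -0.59) and Ndufa13 (-0.69), while Ndufb3 was not called.

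**Figure D1:**
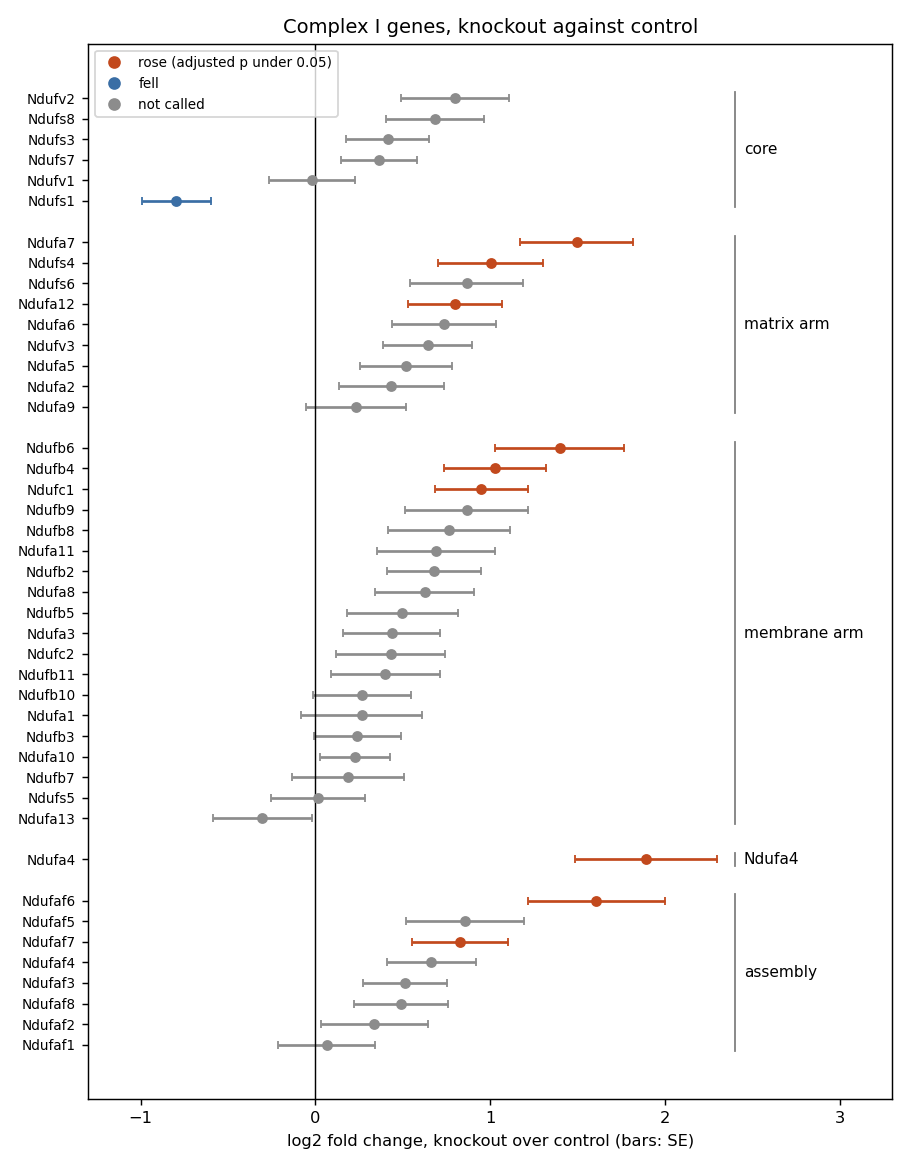
Log2 fold change of 43 of the 44 complex I genes, knockout over control (x axis; points are edgeR estimates, bars 1 SE, 3 libraries per genotype), grouped from top to bottom as core, matrix arm, membrane arm, Ndufa4 and assembly factors. Red points rose, the blue point (Ndufs1) fell, grey points were not called; 40 of 43 points lie above 0.

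Total counts ran from 23476031 to 34568205 in knockout libraries and from 26199718 to 46835165 in control libraries. Ncor1 had 31.3, 36.4 and 22.5 CPM (counts per 1000000 counted reads, scaled by TMM) in the knockout libraries, against 140, 137 and 99.3 CPM in the controls, a log2 fold change of -2.06 (adjusted p = 0.00045, edgeR quasi-likelihood test). Counts of the top 20 genes made up 22.3% to 29.1% of knockout libraries and 12.8% to 15.9% of control libraries, and the TMM factors were 0.741 to 0.975 and 1.09 to 1.28. With library size alone in place of TMM the median of all genes moved by -0.44, and 1133 genes rose and 4554 fell, in place of 2596 and 2752. Complex I genes moved with it: 3 rose (7.54% of all genes) and 2 fell (30.3% of all genes), and their median became 0.08. Relative to the median of all genes it was 0.57 under either scaling. A change of scaling factors shifts all genes nearly alike, so this equality is no check of the values.

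The largest difference was that of Ndufa4, a small subunit that sits in complex IV. It had 1007, 769 and 1355 CPM in knockouts 423, 476 and 477, against 137, 277 and 430 CPM in controls 482, 483 and 486. The lowest knockout library lay above the highest control library. The log2 fold change was 1.89 (SE 0.41, adjusted p = 0.0074, edgeR quasi-likelihood test), which is 3.71-fold higher in knockouts. Per kilobase of exon, Ndufa4 ranked 1 of the 45 genes in knockouts, with a mean of 756 CPM per kilobase, and 4 in controls, with 204. It was called under all 16 alternative settings, with log2 fold changes of 1.37 to 2.34. Its paralogue Ndufa4l2, a gene known to be induced by hypoxia, had 1, 3 and 1 reads in knockouts and 1, 1 and 0 reads in controls, which is at or under the floor of 3 counts.

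In the matrix arm, 3 of 9 accessory subunits rose and none fell, beside 17.3% and 18.3% of all genes, with a median log2 fold change of 0.74. Ndufa7 had 273, 259 and 398 CPM in knockouts, against 69.2, 102 and 159 CPM in controls, with no overlap between the groups. Its log2 fold change was 1.49 (SE 0.32, adjusted p = 0.0078), and like Ndufa4 it was called under all 16 alternatives. Ndufs4, an accessory subunit whose loss in mice gives a model of Leigh syndrome, had 299, 234 and 356 CPM in knockouts and 99.0, 136 and 209 CPM in controls. Every knockout library lay above every control library, and the log2 fold change was 1.00 (SE 0.30, adjusted p = 0.028). Ndufa12, the paralogue of the assembly factor Ndufaf2, had 83.6, 70.6 and 109 CPM in knockouts and 38.1, 44.7 and 68.9 CPM in controls. Knockout 476 and control 486 nearly met, and the log2 fold change was 0.80 (SE 0.27, adjusted p = 0.043). The other 6 had log2 fold changes of 0.23 to 0.86, with Ndufa9, which lies near the ubiquinone site, at the low end and Ndufs6, a zinc-binding subunit, at the high end (adjusted p = 0.55 and 0.061).

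In the membrane arm, 3 of 19 accessory subunits rose and none fell, beside 17.3% and 18.3% of all genes, with a median log2 fold change of 0.44. Ndufb6 had 278, 218 and 410 CPM in knockouts and 67.9, 101 and 175 CPM in controls, giving a log2 fold change of 1.40 with SE 0.37 and adjusted p = 0.017. Ndufb4 was far less abundant, with 18.0, 14.4 and 24.0 CPM in knockouts and 6.45, 8.75 and 12.4 CPM in controls, giving a log2 fold change of 1.03 with SE 0.29 and adjusted p = 0.024. Ndufc1 had 151, 109 and 171 CPM in knockouts and 60.0, 63.5 and 100 CPM in controls, giving 0.95 with SE 0.27 and adjusted p = 0.022. The groups did not overlap in any of these 3 genes. The other 16 ranged from -0.30 in Ndufa13, also known as GRIM-19, to 0.86 in Ndufb9, with adjusted p of 0.42 and 0.079. Ndufa13 was the accessory subunit with a negative value: 137, 132 and 209 CPM in knockouts, against 145, 181 and 262 CPM in controls, groups that overlap. With library size alone in place of TMM, Ndufa13 fell (log2 fold change -0.75, adjusted p = 0.027, edgeR quasi-likelihood test). It also fell with the trend on length alone removed (-0.69).

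**Figure D2:**
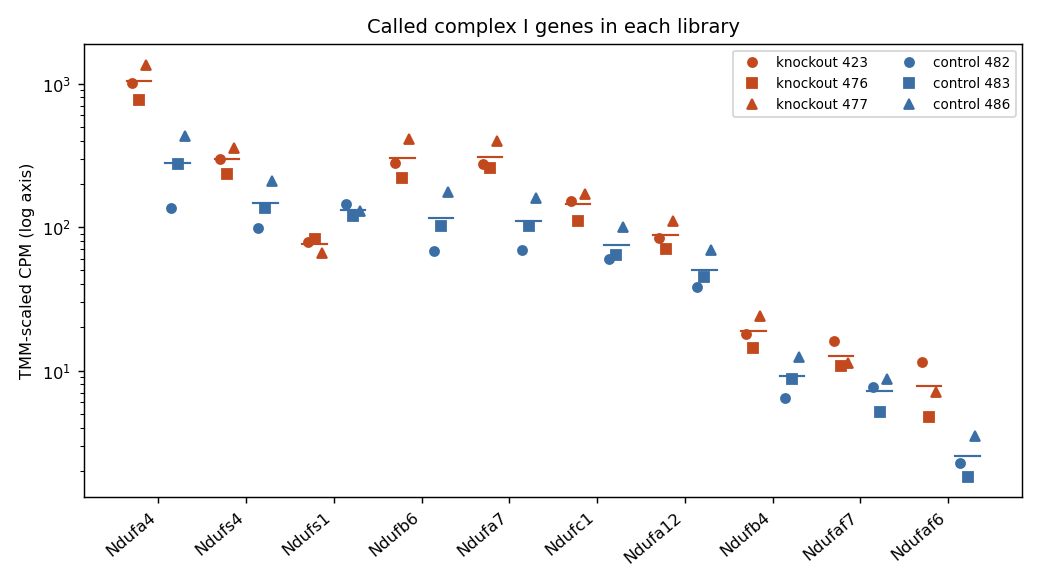
TMM-scaled CPM (log axis) of the 10 called genes in each library, knockouts in red to the left and controls in blue to the right within each gene, with bars at the group means. In 9 genes every knockout point lies above every control point, and in Ndufs1 every knockout point lies below.

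Of the 7 nuclear core subunits, which carry out the chemistry, none rose and 1 fell, beside 17.3% and 18.3% of all genes. At an unadjusted p under 0.05 edgeR had 2 of them higher, and DESeq2 and limma-voom each called 2. Ndufs1, the large iron-sulphur subunit that takes electrons from the flavin end of the arm, had 78.6, 82.8 and 65.6 CPM in knockouts, against 144, 120 and 130 CPM in controls. The groups did not overlap, and the log2 fold change was -0.80 (SE 0.20, adjusted p = 0.013), which is 1.74-fold higher in controls. Without knockout 477 the call was lost (log2 fold change -0.69).

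The other 6 core subunits were not called. Ndufv1, which binds NADH and the flavin, had 178, 205 and 242 CPM in knockouts and 175, 183 and 276 CPM in controls, a log2 fold change of -0.02 (SE 0.25). Its partner Ndufv2, an iron-sulphur subunit of the same module, had 433, 316 and 502 CPM in knockouts and 166, 211 and 342 CPM in controls, giving a log2 fold change of 0.80 with SE 0.31 and adjusted p = 0.068. Here the groups overlapped only through knockout 476 and control 486. Ndufs7, which carries the last cluster before ubiquinone, had 98.9, 93.5 and 120 CPM in knockouts and 68.7, 74.2 and 100 CPM in controls (log2 fold change 0.36, SE 0.22). The groups overlap, and so do those of Ndufs8 and Ndufs3. Ndufs8, a subunit with iron-sulphur clusters, had 173, 123 and 177 CPM in knockouts and 70.8, 86.6 and 137 CPM in controls (0.68, SE 0.28, adjusted p = 0.083). Ndufs3, a matrix arm subunit without a cluster, had 78.2, 62.8 and 85.4 CPM in knockouts and 45.4, 51.0 and 73.7 CPM in controls (0.41, SE 0.23).

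Of the 8 assembly factors 2 rose and none fell, with a median log2 fold change of 0.59. Of 36 subunit symbols 7 rose and 1 fell, with a median of 0.51. Among all genes tested 17.3% rose and 18.3% fell, with a median of -0.06. A difference between assembly factors and subunit symbols, or between either class and all genes, was not tested. Ndufaf6, a factor with a phytoene synthase-like fold, had 11.5, 4.72 and 7.07 CPM in knockouts, against 2.28, 1.82 and 3.52 CPM in controls. Every knockout library lay above the controls, and the log2 fold change was 1.61 (SE 0.39, adjusted p = 0.013, edgeR quasi-likelihood test). Of the 16 alternatives only library size alone, at an adjusted p of 0.056, did not call it. Ndufaf7, a methyltransferase that acts on a core subunit, had 16.0, 10.7 and 11.3 CPM in knockouts and 7.65, 5.10 and 8.67 CPM in controls (log2 fold change 0.83, SE 0.27, adjusted p = 0.041).

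The remaining factors were not called, and all had positive values. Ndufaf5, which modifies NDUFS7, had 16.0, 8.61 and 14.8 CPM in knockouts and 5.80, 5.37 and 10.6 CPM in controls (log2 fold change 0.85, SE 0.34, adjusted p = 0.073). Its partner Ndufaf8 had 24.1, 17.4 and 26.5 CPM in knockouts and 12.1, 14.5 and 21.7 CPM in controls (0.49, SE 0.27, adjusted p = 0.18). In both, knockout 476 lay below control 486. Ndufaf3 and Ndufaf4 act together early in matrix arm assembly. Ndufaf3 had 15.7, 13.1 and 20.0 CPM in knockouts and 11.0, 9.39 and 13.7 CPM in controls (0.51, SE 0.24, adjusted p = 0.12). Ndufaf4 had 28.1, 18.0 and 24.7 CPM in knockouts and 15.5, 10.9 and 18.3 CPM in controls (0.66, SE 0.26, adjusted p = 0.069). In each of them 1 knockout library, 476, lay just below control 486. The smallest values were those of Ndufaf1 and Ndufaf2. Ndufaf1, of the membrane arm assembly complex, had 9.70, 6.81 and 6.84 CPM in knockouts and 7.23, 5.64 and 9.45 CPM in controls (0.06, SE 0.28). Ndufaf2, the Ndufa12 paralogue, had 12.4, 7.35 and 9.03 CPM in knockouts and 6.41, 5.81 and 10.5 CPM in controls (0.34, SE 0.31).

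The assembly factors were much less abundant than the subunits they assemble. Per kilobase of exon the 8 factors had a median of 6.17 CPM per kilobase in knockouts and 3.94 in controls, against medians of 127 and 80.5 for the 35 subunits. Among the subunits the levels ranged from 9.36 to 521 CPM per kilobase in knockouts and from 4.80 to 434 in controls. Ndufa1, a membrane arm subunit, was the most abundant of them on this scale in both genotypes, and Ndufb9 and Ndufa2 followed in controls. Per kilobase of longest transcript Ndufb9 led in knockouts, with 664 CPM per kilobase against 521 for Ndufa1, and Ndufa1 in controls, with 434. In controls Ndufb4, Ndufb2 and Ndufs1 lay below the most abundant factor, Ndufaf8, which had 27.2 CPM per kilobase in knockouts and 19.3 in controls. For Ndufs1 the placement also depends on the length used: the union of annotated exons of Ndufs1 spans 8086 bases and its longest transcript 2661.

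Within each genotype the complex I genes were high or low together, library by library. Control 486 was the highest of the 3 controls in 34 of 35 subunits, and control 482 was the lowest in 33. Knockout 477 was the highest of the 3 knockouts in 32 subunits, and knockout 476 was the lowest in 32. The share of all genes with such an order was not counted. The median of short genes followed the same order of libraries, as given below. The sum over the 35 subunits was 6789, 5602 and 8605 CPM in knockouts 423, 476 and 477, against 3513, 4319 and 6681 CPM in controls 482, 483 and 486, so control 486 lay above knockout 476. As a share of all counts, with no scaling factor, the same sums were 0.661%, 0.488% and 0.637% in knockouts and 0.450%, 0.488% and 0.731% in controls, and control 486 was the highest library of all. The factors gave 133, 86.7 and 120 CPM in knockouts and 68.0, 58.5 and 96.4 CPM in controls, with control 486 again above knockout 476. In a bulk sample, fewer cells of a type and less RNA per cell cannot be told apart.

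The number of calls also depended on single libraries. Without control 486, 26 complex I genes rose and 1 fell, beside 19.3% and 19.5% of all genes. Without knockout 477, 3 rose and 0 fell, beside 10.3% and 11.0% of all genes. Those 3 were Ndufa4, Ndufa7 and Ndufaf6. Without control 482, 4 rose and 1 fell, beside 9.98% and 11.8% of all genes, and without control 483, 3 rose and 1 fell, beside 9.91% and 12.7%. Without knockout 423, 5 rose and 1 fell, beside 12.2% and 13.2% of all genes, and without knockout 476, 12 rose and 1 fell, beside 15.0% and 15.2%.

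**Figure D3:**
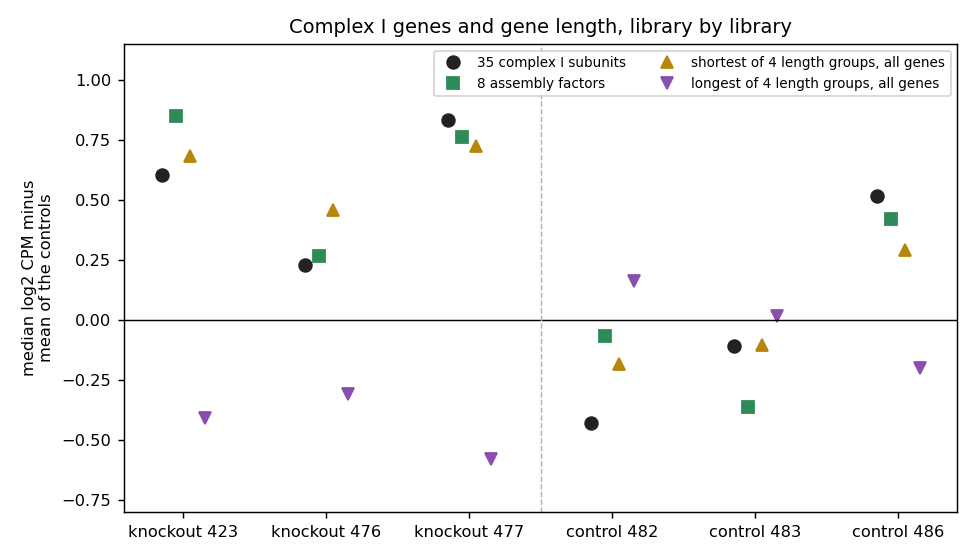
Median over genes of log2 CPM minus the mean of the 3 controls, in each library (x axis; knockouts left of the dashed line, controls right), for the 35 subunits, the 8 assembly factors and the shortest and longest of 4 length groups of all genes. Control 486 lies above the other controls for subunits, factors and short genes, with a subunit median of 0.52.

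Complex I genes are short, and short genes were higher in the knockout libraries across the transcriptome. Their exon length had a median of 1643.5 bases, against 3685.5 for all genes tested. All genes tested were divided by exon length into 4 groups of equal size. In the group with the shortest exons, up to 1888 bases, 32.2% of all genes rose and 7.59% fell, with a median log2 fold change of 0.63. Of the 27 complex I genes in that group 6 rose and none fell, and their median was 0.52. In the next group, up to 3684 bases, 18.3% of all genes rose and 15.3% fell, with a median of 0.06, while 3 of 12 complex I genes rose with a median of 0.53. In the group after that 11.5% of all genes rose and 21.6% fell, with a median of -0.22, and 4 complex I genes had a median of 0.58, with no call. Ndufs1 was the only complex I gene in the longest group, where 7.06% of all genes rose and 28.7% fell and the median was -0.44. That placement depends on the length used. By longest transcript, 2661 bases, Ndufs1 lay in the group of 1577 to 2884 bases. There 17.3% of all genes rose and 15.0% fell, with a median of 0.06.

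Across all genes Spearman's rho between log2 fold change and exon length was -0.37, as a description. Across the 44 complex I genes, which share libraries and scaling, it was -0.05. With the trend on length and GC content removed from the fit, 6 complex I genes rose (15.9% of all genes), 2 fell (15.2% of all genes), and the median was 0.40. The 6 were Ndufa4, Ndufa7, Ndufs4, Ndufb4, Ndufaf6 and Ndufaf7. The calls of Ndufb6, Ndufc1, Ndufa12 and Ndufs1 were lost, at log2 fold changes of 0.62, 0.50, 0.52 and -0.50. Ndufb3 and Ndufs5, a pair of short membrane arm subunits, fell in that fit, at -0.57 and -0.66, against 0.24 and 0.01 without the correction. In the shortest group the median of complex I genes was then 0.24, beside 0.10 for all genes.

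The length pattern also ran through single libraries. The shortest group of all genes had a median deviation from the control mean of 0.68, 0.46 and 0.72 (log2) in knockouts 423, 476 and 477, against -0.18, -0.11 and 0.29 in controls 482, 483 and 486. The 35 subunits had 0.61, 0.23 and 0.83 in knockouts, against -0.43, -0.11 and 0.52 in controls, the same order of libraries within each genotype. The part of gene length in the complex I values beyond these fits was not tested.

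**Figure D4:**
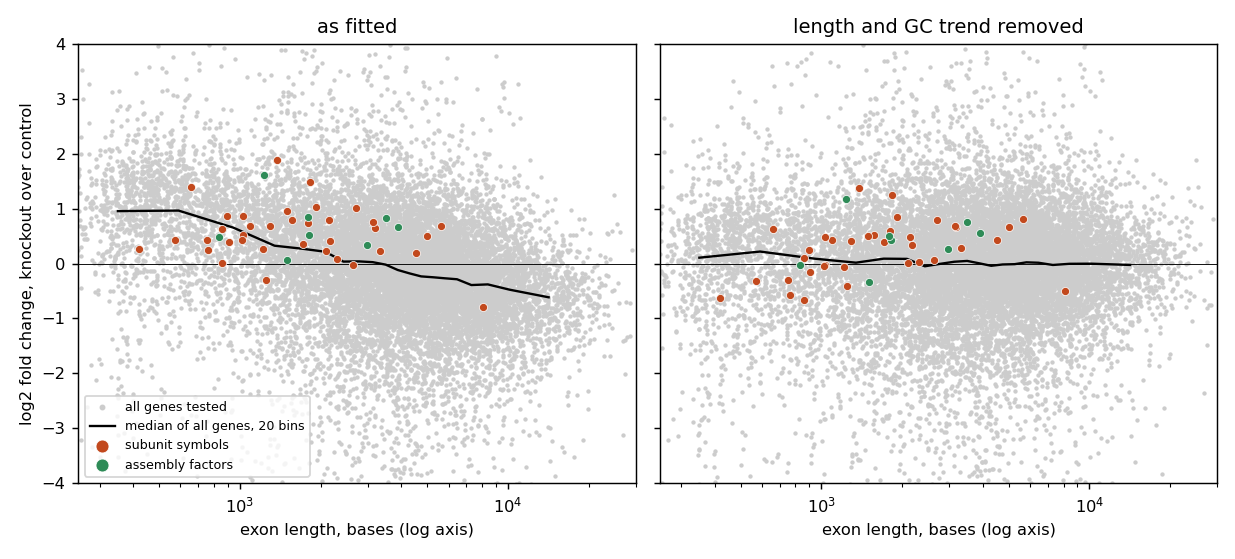
Log2 fold change, knockout over control (y axis), against exon length in bases (log x axis) for all genes tested (grey), subunit symbols (red) and assembly factors (green), as fitted on the left and with the trend on length and GC content removed on the right; values beyond the axes are not drawn. The black line, the median of all genes in 20 length bins, slopes down on the left and is nearly flat on the right, where 31 of 44 complex I genes lie above 0.

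A measure that needs no scaling factor is the share of each gene within the summed counts of the 35 subunits of its own library. The shares of 12 of the 44 genes (27.3%) were higher in every knockout library than in any control library, and those of 9 (20.5%) were lower. Over all genes tested, measured against the same sums, 11.6% were higher and 28.9% lower without overlap. In both directions together these were 47.7% of complex I genes and 40.5% of all genes, so the total was close to the background. The shares of the subunits add up to the whole in each library, so a gain in some is a loss in others by construction, and the values below are a description. Ndufa4, which is outside the sum, equalled 14.8%, 13.7% and 15.7% of it in knockouts, against 3.89%, 6.41% and 6.44% in controls. Ndufa7 made up 4.02%, 4.63% and 4.62% in knockouts and 1.97%, 2.36% and 2.38% in controls. Ndufb6 made up 4.09%, 3.89% and 4.77% in knockouts and 1.93%, 2.34% and 2.62% in controls. The control shares of Ndufa7 lay between 1.97% and 2.38%, whereas its control CPM lay between 69.2 and 159.

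Core subunits are given on the same measure. Ndufs1 made up 1.16%, 1.48% and 0.762% of the subunit counts in knockouts, against 4.10%, 2.78% and 1.95% in controls. Ndufv1 made up 2.63%, 3.66% and 2.81% in knockouts, against 4.99%, 4.25% and 4.13% in controls. Both shares were lower in every knockout library, although the log2 fold change of Ndufv1 itself was -0.02. Ndufv2, the partner of Ndufv1, was higher in every knockout library, at 6.38%, 5.64% and 5.83%, against 4.73%, 4.90% and 5.12% in controls. So was Ndufs8, by a narrow margin, at 2.55%, 2.19% and 2.06%, against 2.01%, 2.01% and 2.06% in controls. The shares of the core subunits Ndufs3 and Ndufs7 overlapped between the genotypes. Ndufa13, an accessory subunit, made up 2.01%, 2.36% and 2.43% in knockouts, against 4.14%, 4.20% and 3.92% in controls. Of the 8 assembly factors 7 had overlapping shares, and Ndufaf6 was higher in every knockout library.

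RefSeq promoters on GRCm38.p6, running from 250 bases before to 50 bases after the gene start, were matched to 39 of the 45 genes. Ndufa2, Ndufa4l2, Ndufaf6, Ndufb9 and Ndufs1 were among those not matched. On both strands 4 strings were searched, none of which lies within another: GCGCA and GCGC with any 1 base between them for NRF1, CCGGAAG for GABP, AAGATGGC for YY1 and CAAGGTCA for oestrogen-related receptors, factors known for nuclear genes of mitochondrial proteins. The NRF1 string was in the promoters of 9 of the 39 genes (23.1%), against 11.2% of tested genes and 5.19% of all genes with a promoter of this length. The YY1 string was in 8 (20.5%), against 5.29% of tested genes and 3.19% of all. The GABP string was in 6 (15.4%), against 20.1% and 9.93%, and the receptor string in 1 (2.56%), against 1.38% and 1.76%.

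Risen and uncalled genes both held the strings. Of the 8 risen genes with a promoter, 1 held the NRF1 string, 1 the GABP string, 2 the YY1 string and 0 the receptor string. Of the 31 genes that were not called, 8 held the NRF1 string, 5 the GABP string, 6 the YY1 string and 1 the receptor string. The promoters below are those of Ndufa4, the gene with the largest difference and no string, of Ndufb4, which holds the NRF1 string 3 times, of Ndufs4, with the YY1 string, and of Ndufb6, with the GABP string on the other strand. Capitals mark the strings, a match being a description of the letters and not a bound site.
Ndufa4, chr6:11907401-11907700, strand minus: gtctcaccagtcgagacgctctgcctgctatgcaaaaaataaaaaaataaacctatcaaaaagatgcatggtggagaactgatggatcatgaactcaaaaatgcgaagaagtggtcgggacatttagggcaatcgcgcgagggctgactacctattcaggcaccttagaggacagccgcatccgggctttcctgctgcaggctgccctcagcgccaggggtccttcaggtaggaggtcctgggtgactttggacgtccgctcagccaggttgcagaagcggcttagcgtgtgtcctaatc
Ndufb4, chr16:37654319-37654618, strand minus: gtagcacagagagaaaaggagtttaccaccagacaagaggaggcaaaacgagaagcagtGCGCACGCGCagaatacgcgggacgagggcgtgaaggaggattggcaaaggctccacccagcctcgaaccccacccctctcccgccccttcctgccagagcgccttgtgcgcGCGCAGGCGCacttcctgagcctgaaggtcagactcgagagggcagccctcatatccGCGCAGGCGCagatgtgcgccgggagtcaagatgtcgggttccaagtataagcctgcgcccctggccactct
Ndufs4, chr13:114388045-114388344, strand minus: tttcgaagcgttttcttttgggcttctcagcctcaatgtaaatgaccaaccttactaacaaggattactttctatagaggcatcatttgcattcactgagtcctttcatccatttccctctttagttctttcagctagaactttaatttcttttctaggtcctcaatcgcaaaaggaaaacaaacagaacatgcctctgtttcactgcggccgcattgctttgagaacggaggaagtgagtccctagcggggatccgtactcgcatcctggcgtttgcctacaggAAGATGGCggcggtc
Ndufb6, chr4:40279372-40279671, strand minus: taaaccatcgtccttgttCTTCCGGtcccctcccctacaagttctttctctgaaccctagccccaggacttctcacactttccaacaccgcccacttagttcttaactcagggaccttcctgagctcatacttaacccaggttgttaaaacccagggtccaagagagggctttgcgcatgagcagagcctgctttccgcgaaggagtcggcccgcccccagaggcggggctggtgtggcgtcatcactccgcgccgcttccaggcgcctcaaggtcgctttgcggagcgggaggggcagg

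The counts of some complex I genes cannot be separated from those of neighbours or copies. Exons of 18 of the 45 overlap exons of another gene, in Ndufaf2 over 65.6% of its exon bases (B230220B15Rik), in Ndufb6 over 39.0% (Smim27) and in Ndufa13 over 30.0% (Tssk6). The strand setting of the counting is not given in the sources used here. Stretches of at least 100 bases at 97% identity or more lie in other genes for 7 members, covering 75.7% of the longest transcript of Ndufs3 (Gm12251), 46.9% of Ndufs5 (BC002163), 40.2% of Ndufb4 (Ndufb4c) and 29.1% of Ndufa12 (Gm15920). The copies of Ndufb4 and Ndufa12 rose too: Ndufb4c by 1.33 on the log2 scale (adjusted p = 0.015) and Gm15920 by 0.93 (adjusted p = 0.030), so the values of Ndufb4 and Ndufa12 are uncertain to that extent. Shorter stretches, shared with several genes, covered 9.45% of Ndufc1, 5.54% of Ndufaf7 and 10.8% of Ndufaf2, and the values of those genes were not read. The copies of Ndufs3 and Ndufs5 had log2 fold changes of 0.15 and 0.22 and were not called. Ndufa4, Ndufa7, Ndufs4 and Ndufaf6 had neither an overlap nor a copy by these criteria.

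Of 10 further genes that serve complex I, 5 rose and none fell, beside 17.3% and 18.3% of all genes, with a median log2 fold change of 0.62. Tmem70, an assembly protein known for ATP synthase and also linked to complex I, had 65.7, 42.5 and 63.2 CPM in knockouts and 16.8, 15.7 and 26.7 CPM in controls (log2 fold change 1.53, adjusted p = 0.0029). Nubpl, which delivers iron-sulphur clusters to the complex, had 5.61, 4.62 and 4.20 CPM in knockouts and 1.43, 1.55 and 2.32 CPM in controls (1.44, adjusted p = 0.0091). Lyrm2 and Foxred1, further assembly proteins, rose by 0.93 and 0.81 on the log2 scale (adjusted p = 0.011 and 0.014). Tmem126b, a partner of Ndufaf1 in the membrane arm assembly complex, rose by 0.73 (adjusted p = 0.024). The groups did not overlap in these 5 genes. Ndufab1 had a log2 fold change of 0.32 and Ndufb1-ps of 0.67 (adjusted p = 0.24 and 0.14).

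The lists of the other respiratory complexes had medians of 0.43 to 0.81, beside 0.51 for complex I. Complex II had 4 of 8 genes risen (median 0.81) and complex III 2 of 15 (0.45). Complex IV had 6 of 23 (0.62) and complex V 1 of 17 (0.43), beside 17.3% of all genes. No gene of these lists fell in the main edgeR fit (18.3% of all genes), DESeq2 or limma-voom. In the main fit 1 gene of complex II was lower at an unadjusted p under 0.05. With the length and GC trend removed 1 gene of complex III and 2 of complex IV fell, beside 15.2% of all genes. With library size alone 1 of complex II, 2 of complex IV and 1 of complex V fell, beside 30.3% of all genes. In complex II, Sdha, the flavoprotein, had a log2 fold change of -0.48 (adjusted p = 0.099), while the membrane anchor Sdhd rose by 0.98 and the assembly factors Sdhaf1, Sdhaf2 and Sdhaf3 by 1.04, 0.96 and 1.25. Cox7b, a small complex IV subunit, rose by 1.17, and the assembly genes Cox15, Cox18 and Surf1 by 0.90, 0.90 and 0.62. The risen genes of complex III were the subunit Uqcr10 (1.04) and the assembly factor Uqcc2 (0.99), and that of complex V was the stalk subunit Atp5h (0.92). Of 7 genes listed for electron entry outside complex I, 3 rose, with Etfb at 1.28, Aifm2 at 1.09 and Etfa at 0.81. The others, Etfdh (0.32), Gpd2 (-0.03), Dhodh (0.70) and Aifm1 (-0.47), were not called. The adjusted p of the genes named as risen lay between 0.0049 (Aifm2) and 0.036 (Atp5h) in edgeR's quasi-likelihood test.

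**Figure D5:**
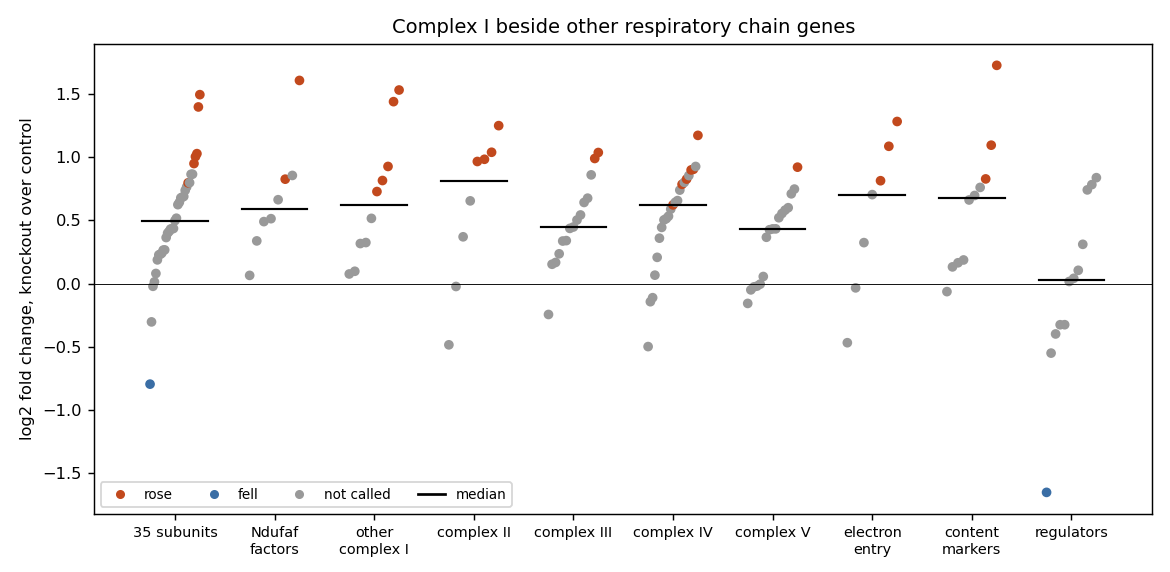
Log2 fold change, knockout over control, of single genes (points; red rose, blue fell, grey not called) in the 35 complex I subunits, the Ndufaf factors and the lists of other complex I genes, complexes II to V, other electron entry, mitochondrial content and regulators; black bars are medians. All medians but that of the regulators (0.03, and 0.36 with the length and GC trend removed) lie between 0.43 and 0.81.

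Regulators of mitochondrial gene expression had a median log2 fold change of 0.03, below those of the other mitochondrial lists. With the length and GC trend removed their median was 0.36 and 1 of them rose, beside medians of 0.40 for complex I, 0.34 for complex IV and 0.24 for complex V, so the gap depends on that setting. Without that correction, of 12 tested, none rose and 1 fell, while 1 was higher at an unadjusted p under 0.05 and by DESeq2, and 0 by limma-voom. Ppargc1a, a coactivator known to drive mitochondrial biogenesis, had 15.5, 11.1 and 10.5 CPM in knockouts, against 41.9, 47.0 and 27.8 CPM in controls, giving a log2 fold change of -1.65 with SE 0.26 and adjusted p = 0.0018. The groups were well apart. Esrra, its nuclear receptor partner, had a log2 fold change of -0.33 (adjusted p = 0.31), and Tfam, which packages mitochondrial DNA, of 0.31 (adjusted p = 0.30). Among 10 genes taken as markers of mitochondrial content 3 rose and none fell, beside 17.3% and 18.3% of all genes. The risen ones were the import subunits Timm23 (1.73) and Tomm20 (1.09) and the chaperone Hspa9 (0.83). Cs, citrate synthase, had a log2 fold change of 0.16 and Vdac1, the outer membrane channel, of -0.06.

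Markers of the tissue and of other cell types were read in the same libraries. Epithelial markers were all detected, with sums of 48487 to 98462 CPM in knockouts and 20029 to 30483 CPM in controls. Fabp2, an enterocyte fatty acid binding protein, carried these sums: without it they were 8779 to 12807 CPM in knockouts and 11888 to 13211 CPM in controls. Of the 8 markers Fabp2 rose (2.20) and Vil1, whose promoter drives the Cre, fell (-1.20), and 5 had negative log2 fold changes, with a median of -0.07. Epcam, an epithelial adhesion molecule, was lower in every knockout library without being called in the main fit (-0.62, adjusted p = 0.070). In edgeR it fell with the length and GC trend removed (-0.73, adjusted p = 0.032) and with library size alone (-1.07, adjusted p = 0.0018). DESeq2 and limma-voom each called 2 of the 8 epithelial markers lower, beside 19.7% and 21.2% of all genes. Erythrocyte markers, 5 of 5 tested, rose in edgeR and DESeq2 and 0 of 5 in limma-voom, with sums of 129, 35.6 and 543 CPM in knockouts 423, 476 and 477, against 7.95, 14.8 and 22.2 CPM in controls 482, 483 and 486, which is the same order of libraries as the summed subunits within each genotype. Of 7 leukocyte markers 1 rose and 2 fell, with sums of 40.4 to 53.6 CPM in knockouts and 45.6 to 125 CPM in controls. None of 8 stromal and muscle markers was called (2 were lower at an unadjusted p under 0.05 and by limma-voom, and 1 by DESeq2), with sums of 4.02 to 45.6 CPM in knockouts and 6.98 to 34.9 CPM in controls. In knockout 477 the B cell gene Cd79a was at 0, and in all controls the erythrocyte gene Slc4a1 was at 0. The part of these cells in the complex I values was not tested.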

How the data were processed

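The libraries were 6, 3 from knockout and 3 from control mice, with groups and animal numbers from the sample titles. Tests started from raw gene counts, whole numbers that the authors deposited without scaling. The submitters' processing notes name STAR 2.7.9a, Subread 1.6.2 with featureCounts, fastp 0.21.0, bcl2fastq, FastQC 0.11.7 and DESeq2 1.23.10, and the build mm10. Annotation, strand setting and filters of the counting: not given in the sources used here. The deposited table of variance-stabilised log2 values served 1 alternative.

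Of 55450 identifiers, 55104 matched a symbol in GENCODE M21, and unmatched ones held at most 0.0421% of the counts of any library. In R 4.3.3 with edgeR 4.0.16, filterByExpr left 15028 genes, libraries were scaled by TMM, and the robust quasi-likelihood test was fitted over all of them, with Benjamini-Hochberg adjustment at 0.05. CPM are TMM-scaled. The SE is the log2 fold change over the square root of F. Exon length is the union of annotated exons per gene. The scripts were tested on simulated data. Alternatives were other scalings and filters, DESeq2 1.42.0, limma 3.58.1, length and GC terms fitted with mgcv 1.9.3, and leaving out each library. A floor of 3 counts and the spread of 3 mice limit precision.

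The genes, lists and tests were chosen with earlier results of these data known. The second targeted gene and the values of 1 core subunit are not reported here. By rule, every other complex I gene is accounted for, and in full those called, the core subunits, the Ndufaf genes, Ndufa4 and Ndufa4l2. From other lists up to 4 genes with the smallest adjusted p were named, plus Ppargc1a, Esrra and Tfam. Sdha, Cs, Vdac1, Fabp2, Vil1, Epcam, Slc4a1, Cd79a, Tmem126b, Etfdh, Gpd2, Dhodh and the copies were named after their values were seen. The share of summed subunit counts was also chosen after seeing the data.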

Additional observations from a re-analysis of the deposited data

How the results depend on the processing

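The alternatives were 16. Ndufa4 and Ndufa7 kept their calls in all of them and Ndufaf6 in all but library size alone. DESeq2, limma-voom and both filters kept all 10 called complex I genes. Called complex I genes numbered 10, and 5 with library size alone, 16 with no filter, 18 in DESeq2 and 22 in limma-voom. Subunit symbols numbered 8, and 5, 13, 14 and 18 in the same order. Assembly factors numbered 2, and 0 with library size alone and 4 in DESeq2 and in limma-voom. These numbers pool both directions. Among all genes 17.3% rose and 18.3% fell in the main fit, and 7.54% and 30.3% with library size alone. DESeq2 called 20.1% of all genes higher and 19.7% lower, and limma-voom 21.1% and 21.2%. For the fit with no filter the share of all genes is not given here. Leaving out 1 library gave 3 to 27 complex I genes, 2 to 22 subunit symbols, 1 to 5 assembly factors and 3299 to 5940 of all genes. The rank correlation of complex I fold changes with exon length went to 0.47 once the length and GC trend was removed, against -0.05. The cause of these changes was not tested, and each fit without a library also had fewer samples. No called complex I gene changed sign. No paired analysis was possible because animal numbers are not shared between the genotypes. The p-values rest on 3 mice per genotype. Depth limits Ndufa4l2.

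Among uncalled genes, signs turned as follows (log2 fold changes, knockout over control). With the length and GC trend removed the values were Ndufaf1 -0.34, Ndufaf8 -0.020, Ndufa2 -0.31, Ndufa5 -0.029, Ndufa1 -0.62, Ndufa3 -0.052, Ndufb10 -0.070, Ndufb11 -0.15, Ndufb3 -0.57, Ndufc2 -0.30, Ndufs5 -0.66, Ndufv1 0.065 and Col1a2 0.13. With the length trend removed they were Ndufaf1 -0.21, Ndufaf8 -0.13, Ndufa2 -0.33, Ndufa1 -0.56, Ndufa3 -0.065, Ndufb10 -0.12, Ndufb11 -0.17, Ndufb3 -0.43, Ndufc2 -0.23 and Ndufs5 -0.59. With library size alone they were Ndufaf1 -0.35, Ndufaf2 -0.066, Ndufa2 -0.016, Ndufa9 -0.19, Ndufa1 -0.19, Ndufa10 -0.20, Ndufa3 -0.00048, Ndufb10 -0.16, Ndufb11 -0.025, Ndufb3 -0.20, Ndufb7 -0.26, Ndufs5 -0.43, Ndufs3 -0.018, Ndufs7 -0.077 and Tfam -0.12. Ndufs5 was -0.030 with no filter and -0.032 with at least 10 counts in every library. Ndufv1 was 0.010 with median-of-ratios factors, 0.031 with upper-quartile factors, 0.0099 in DESeq2, 0.13 in limma-voom and 0.0033 in limma-trend. Acta2 was -0.66 in limma-voom and -0.015 in limma-trend. With 1 library left out the ranges were -0.10 to 0.27 for Ndufaf1, -0.13 to 0.54 for Ndufa1, -0.072 to 0.55 for Ndufb7, -0.18 to 0.27 for Ndufs5, -0.15 to 0.22 for Ndufv1, -4.27 to 0.97 for Cd79a and -2.38 to 2.47 for Acta2.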
